A study of Mus musculus with 8 samples.

Results

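miR-21 and miR-22 were measured in the stroma, mature ducts and terminal end buds (TEBs) of the pubertal mouse mammary gland. They were taken by name, as the entries mmu-miR-21 and mmu-miR-22 of the array, which are 2 of its 611 mouse miRNAs. The rule used names and no threshold on a measured value, but it was set with earlier results of these data known. All tissue came from 5-week-old female FVB/n mice that carry green fluorescent protein (GFP) under the β-actin promoter, which let the fluorescent tissue be micro-dissected under a microscope. That promoter is active in most cell types, and the reporter therefore marks no single cell type. The labels name no treatment and no further allele. There were 3 arrays of TEBs (the club-shaped ends at which ducts elongate), 2 of mature ducts and 3 of distal stroma, the fat pad away from the ductal tree. The labels do not say whether the arrays of a tissue came from separate animals, so p-values measure the spread between these arrays, which may be technical.

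miRNAs are short RNAs that guide a silencing complex to messenger RNAs, mainly by pairing of their seed, bases 2 to 8. miR-21 is abundant in most tissues, is raised in many carcinomas including breast cancer, and is known to repress the tumour suppressor PDCD4. miR-22 is likewise broadly expressed. It has been linked to repression of TET enzymes and of the estrogen receptor, to epithelial-mesenchymal change and stemness in the breast, and in other settings to growth arrest and to fat and muscle metabolism.

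The array names predate the present nomenclature, in which miR-21 is miR-21a-5p and miR-22 is miR-22-3p. Both mature strands are printed 5′ to 3′ with the seed in capitals, to show what the 2 probe sets are named for and that their seeds differ. The sequences are those of RefSeq (GRCm38.p6), since the array files hold no probe sequences.
miR-21a-5p: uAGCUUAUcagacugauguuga
miR-22-3p: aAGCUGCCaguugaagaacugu
The first lies at chr11:86584120-86584141 on the minus strand, in a hairpin within the span of the protein-coding gene Vmp1, and the second at chr11:75463772-75463793 on the plus strand, in a hairpin within the long non-coding RNA gene Mir22hg. Among the 1738 mature mouse entries of that table, 1 other had the seed of miR-21 and no other had the seed of miR-22. The sharer was miR-21c, which the array does not list. It differs from miR-21a-5p at 5 of its 21 bases, all after the seed (A16G, G18A, U19C, U20A and G21A, the base of miR-21a-5p first, counted from 1 at the 5′ end).
miR-21c: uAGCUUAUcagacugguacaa
miR-21b has another seed and is not listed by the array either. It differs from miR-21a-5p at 4 of 22 compared bases (C4U, G18A, G21U and A22C). The hybridisation of miR-21c or miR-21b to the miR-21 probes was not tested, so the miR-21 signal may include them.

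The scanner software gave, for each miRNA, a total signal (the background-subtracted fluorescence summed over its probes), the error of that signal and a detection flag. Between 142 and 169 mouse miRNAs were detected per array, and the summed signal of an array ran from 57154.5 to 97313.7 units, both duct arrays lying above all others. Epithelial markers separated the tissues: 8 of 10 were detected on every duct and every TEB array and none of the 10 on any stroma array. The summed scaled signal of that list was 2.7 to 16.6 units in stroma, 2161.3 to 2391.1 in ducts and 2059.4 to 2192.9 in TEBs, and miR-203 and miR-182 were detected nowhere. The duct and TEB samples also held signal of stromal cell types, which is given beside miR-22. In tissue samples such as these, fewer cells of a type and less RNA per cell cannot be told apart.

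miR-21 was detected on all 8 arrays. On the stroma arrays its signal was 4968.4, 4574.2 and 3594.1 units, on the duct arrays 6777.0 and 7942.7, and on the TEB arrays 5024.4, 8368.3 and 7297.8. As a share of the summed mouse miRNA signal of the same array, which amounts to scaling each array to its total signal, it made up 6.45%, 6.66% and 6.29% in stroma, 6.96% and 8.77% in ducts, and 7.54%, 10.69% and 10.72% in TEBs. Every epithelial array lay above every stroma array, while TEB replicate 1 fell between the duct arrays. A share of fluorescence is not a share of molecules, because probes differ in brightness per molecule.

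The mean share of miR-21 in TEBs was 9.65% ± 1.83 (SD, n = 3). It was 7.87% ± 1.28 (SD, n = 2) for the ducts, and stroma had 6.47% ± 0.19 (SD, n = 3). TEBs exceeded stroma by 3.18 percentage points (standard error 1.06) and ducts exceeded stroma by 1.40 (standard error 0.91). Each of these gave p = 0.1 in an exact two-sided permutation test, the smallest p that 3 arrays against 3 or 2 arrays allow. TEBs and ducts overlapped, with a difference of 1.78 percentage points (standard error 1.39, exact permutation p = 0.3). Single duct and TEB arrays moved these values. The duct excess over stroma was 2.30 without duct replicate 1 and 0.50 without duct replicate 2. TEBs minus ducts was 0.88 without duct replicate 1, 2.69 without duct replicate 2 and 2.84 without TEB replicate 1. With the TEB and duct arrays pooled as epithelium, the share was 8.94% ± 1.74 (SD, n = 5) and the excess over stroma 2.47 percentage points (exact permutation p = 0.054). The epithelial excess was 1.95 points among the arrays in the first row of the slide and 3.27 among those in the second. Slide rows were read from the names of the deposited data, since the labels do not give them. Each tissue had only 1 or 2 arrays in a row. Shares without overlap were common. Of the 167 tested miRNAs, 71.9% had them for TEBs against stroma, 46.1% for ducts against stroma and 35.3% for epithelium against stroma.

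**Figure D1:**
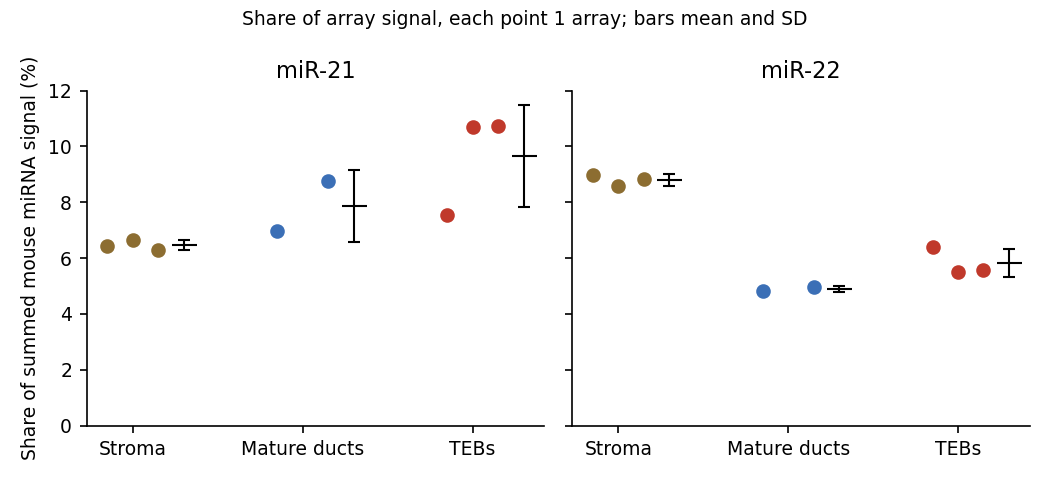
Share of the summed mouse miRNA signal (%, vertical axis) taken by miR-21 (left) and miR-22 (right) in stroma, mature ducts and TEBs, with 1 point per array and the mean and SD of each tissue in black. miR-21 ran from 6.29% to 6.66% in stroma and higher on all epithelial arrays, and miR-22 ran from 8.58% to 8.99% in stroma and lower on all epithelial arrays.

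For the test across all miRNAs, each array was scaled to the 75th percentile of the 108 mouse miRNAs detected on all 8 arrays. After scaling, miR-21 gave 5076.6, 5491.4 and 4889.4 units in stroma, 5082.4 and 6371.5 in ducts, and 5060.8, 7918.1 and 7627.6 in TEBs. The groups overlapped in all comparisons, since duct replicate 1 and TEB replicate 1 lay within the range of the stroma arrays. By mean log2 signal the order was TEBs (12.72 ± 0.36, SD, n = 3), ducts (12.47 ± 0.23, SD, n = 2) and stroma (12.33 ± 0.09, SD, n = 3), and no neighbours in this order differed beyond their spread. The scanner error of the miR-21 signal was 9.5% to 10.8% on each array, and highest on TEB replicate 1.

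miR-21 did not pass an adjusted p of 0.05 in any comparison. Its log2 difference was 0.39 between TEBs and stroma (95% confidence interval -0.08 to 0.86, adjusted p = 0.12 from limma). Between TEBs and ducts it was 0.24 (-0.28 to 0.77, adjusted p = 0.42), and between ducts and stroma 0.14 (-0.38 to 0.67, adjusted p = 0.74). The first interval allows a TEB level from 0.95 to 1.81 times that of stroma. TEB replicate 1 decided the first of these: without it the difference was 0.62 and passed (adjusted p = 0.009 from limma). It also passed when arrays were scaled to their total signal (0.56, adjusted p = 0.027).

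**Figure D2:**
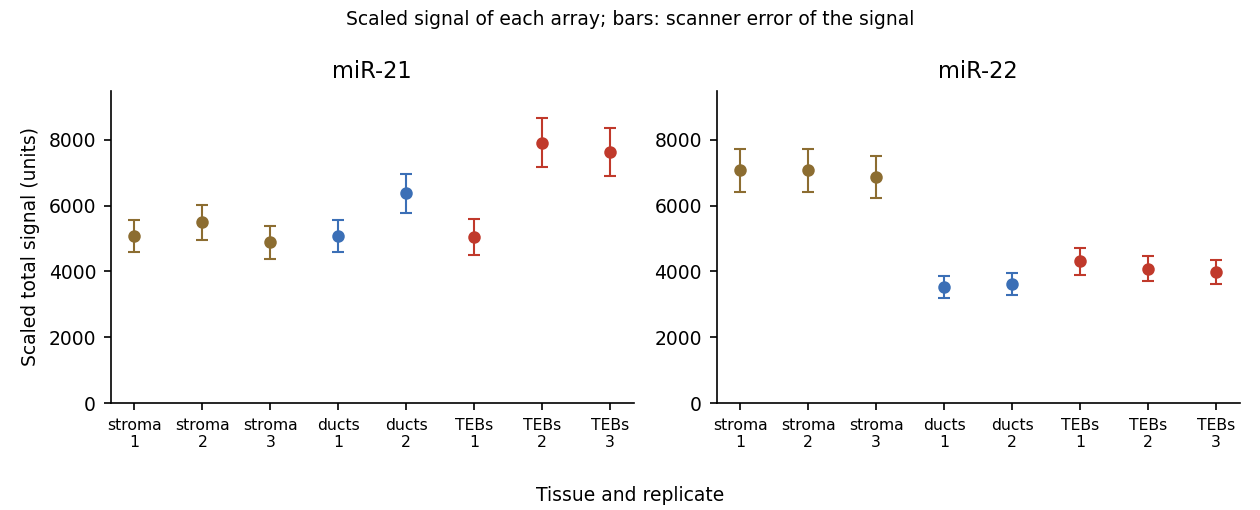
Scaled total signal (units, vertical axis) of miR-21 (left) and miR-22 (right) on each of the 8 arrays, named by tissue and replicate, with bars for the scanner software's error of that signal. For miR-21, 1 duct array and 1 TEB array sit at the stromal level, whereas for miR-22 the 3 stroma arrays lie between 6862.4 and 7072.6 units and all epithelial arrays at or below 4302.3.

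miR-22 was detected on all 8 arrays and was highest in stroma. Its signal was 6921.2, 5891.3 and 5044.4 units on the stroma arrays, 4700.4 and 4503.6 on the duct arrays, and 4271.4, 4314.0 and 3805.2 on the TEB arrays, so that even unscaled no epithelial array reached a stroma array. The scaled signals were 7071.9, 7072.6 and 6862.4 units in stroma, 3525.0 and 3612.7 in ducts, and 4302.3, 4082.0 and 3977.2 in TEBs. The 3 tissues did not overlap as scaled here, with ducts lowest, whereas unscaled the TEB arrays were lowest. Non-overlap was not counted over all miRNAs for scaled signals. For shares of array signal it held for 71.9% of the 167 tested miRNAs between TEBs and stroma. It held for 46.1% between ducts and stroma and 59.9% between TEBs and ducts. The scanner error was 9.2% to 9.3% on each array, more than the scaled stroma arrays differed from each other.

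Relative to stroma, miR-22 was 1.70-fold lower in TEBs (log2 difference -0.77, 95% confidence interval -0.95 to -0.59, adjusted p = 2.9e-04 from limma) and 1.96-fold lower in ducts (log2 difference -0.97, -1.17 to -0.77, adjusted p = 2.4e-04). Among the 167 tested miRNAs, 64.7% passed for TEBs against stroma (20.4% higher and 44.3% lower in TEBs), and 21.6% for ducts against stroma (9.58% higher and 12% lower in ducts). A difference below that of miR-22 was found for 28.7% of them in the first comparison and for 5.99% in the second. Within the slide rows the log2 difference was -0.75 (2 arrays against 1) and -0.81 (1 against 2) for TEBs against stroma. For ducts against stroma it was -1.0 (1 against 1) and -0.95 (1 against 2). So few arrays per row cannot show whether the rows agree. Both calls depended on the scaling: TEBs against stroma did not pass with each array scaled to the 75th percentile of all 611 mouse miRNAs (-0.37, adjusted p = 0.31), and ducts against stroma did not pass with no scaling (-0.36, adjusted p = 0.16).

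Between the epithelial fractions, miR-22 was at a log2 difference of 0.21 (TEBs minus ducts, 95% confidence interval 0.01 to 0.41), which did not pass over all miRNAs (adjusted p = 0.094 from limma), where 24.6% of the tested miRNAs did (11.4% higher and 13.2% lower in TEBs). The direction of this difference was not stable, since it was -0.16 with no scaling, -0.04 without TEB replicate 1, -0.02 without duct replicate 1, and -0.14 in the authors' value table of the series.

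As a share of the array signal, miR-22 made up 8.99%, 8.58% and 8.83% in stroma, 4.83% and 4.97% in ducts, and 6.41%, 5.51% and 5.59% in TEBs. No tissue overlapped another, and the same held for 59.9% of the tested miRNAs between TEBs and ducts. Stroma had a mean of 8.80% ± 0.21 (SD, n = 3). The means of the epithelial fractions were 4.90% ± 0.10 (SD, n = 2) for ducts, and for TEBs 5.84% ± 0.50 (SD, n = 3). Epithelium minus stroma was -3.33 percentage points (5.46% against 8.80%, exact permutation p = 0.018, the smallest that 5 arrays against 3 allow). The difference was -3.41 points in the first slide row and -3.42 in the second. Over the 12 share and ratio tests, its Benjamini-Hochberg adjusted value was 0.108 (exact permutation tests), so it did not pass 0.05 after that adjustment.

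As a pair, the 2 miRNAs accounted for 15.26% ± 0.17 (SD, n = 3) of the mouse miRNA signal of stroma. For ducts this sum was 12.77% ± 1.38 (SD, n = 2), and for TEBs 15.49% ± 1.33 (SD, n = 3). Stroma and TEBs overlapped in this sum.

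The ratio of the 2 signals within an array is free of any scaling, and its change between tissues shows whether they changed alike. Its level says nothing of which miRNA is more abundant, because they are read by different probes. The log2 ratio of miR-21 to miR-22 was -0.48, -0.37 and -0.49 on the stroma arrays, 0.53 and 0.82 on the duct arrays, and 0.23, 0.96 and 0.94 on the TEB arrays. No stroma array reached the lowest epithelial array, and TEBs and ducts overlapped. The separation from stroma follows from the shares, since that of miR-21 was higher and that of miR-22 lower on every epithelial array. It is therefore no further result, and non-overlap was not counted for other pairs of miRNAs.

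The log2 ratio was 1.14 higher in epithelium than in stroma (standard error 0.14, exact permutation p = 0.018, the smallest possible, and 0.108 after Benjamini-Hochberg adjustment over 12 tests). It was 1.15 higher in TEBs and 1.12 higher in ducts than in stroma, each at p = 0.1 by exact permutation, the smallest p those group sizes allow. TEBs and ducts differed by 0.04 (standard error 0.28, exact permutation p = 1). The epithelial excess was 1.05 in the first slide row and 1.31 in the second. TEB replicate 1 had the lowest epithelial ratio, and without it the TEB excess over stroma was 1.39.

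**Figure D3:**
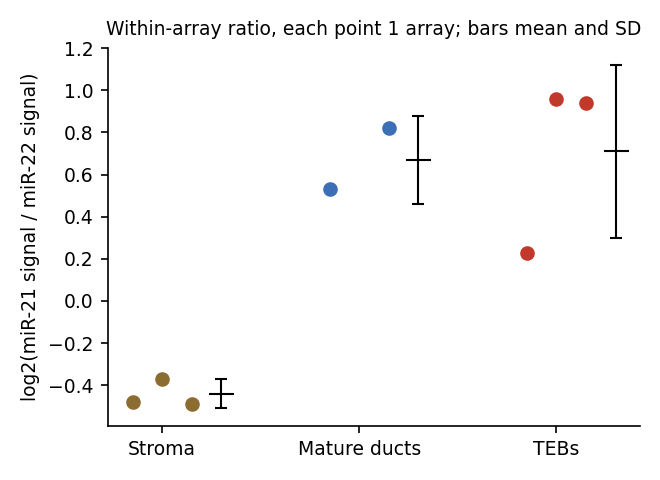
log2 of the miR-21 signal over the miR-22 signal of the same array (vertical axis) in stroma, mature ducts and TEBs, with 1 point per array and the mean and SD of each tissue in black. The stroma arrays lie from -0.49 to -0.37 and the epithelial arrays from 0.23 to 0.96.

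Both miRNAs are described as broadly expressed, and their tissue ranges were compared with those of the 108 miRNAs detected on all arrays. The tissue means of miR-21 spanned 0.39 on the log2 scale, a span smaller than the median of 0.60, with 29.6% of the 108 below it. Those of miR-22 spanned 0.97, with 77.8% below. Their spread within tissues ran the other way as scaled here. The residual SD of miR-22 was 0.04, lower than in all but 1.85% of these miRNAs. That of miR-21 was 0.25 against a median of 0.15. These spans and SDs were computed only as scaled here. The limma standard error of TEBs minus ducts was then 0.08 for miR-22 and 0.22 for miR-21. With the percentile of all miRNAs it was 0.31 and 0.33, so the contrast nearly vanished. It was 0.18 and 0.26 with no scaling, 0.10 and 0.19 with total signal, and 0.06 and 0.18 with quantile normalization.

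**Figure D4:**
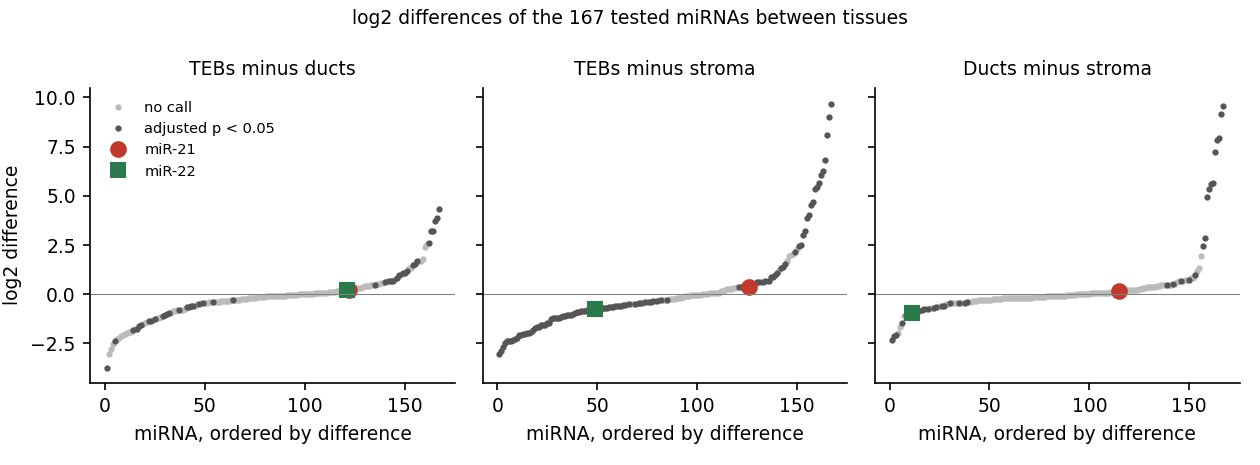
log2 difference (vertical axis) of each tested miRNA, ordered from lowest to highest (horizontal axis), in each comparison, with miRNAs at an adjusted p under 0.05 in dark grey. miR-21 lies between 0.14 and 0.39 and is not called in any panel, and miR-22 lies among the lower values against stroma, at -0.77 for TEBs and -0.97 for ducts.

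The scaling moved all miRNAs together. The median log2 difference of the tested miRNAs between TEBs and stroma was -0.28 as scaled here, 0.12 with the percentile of all 611 mouse miRNAs and -0.03 with no scaling. Between TEBs and ducts these medians were -0.10, 0.45 and -0.47, and between ducts and stroma -0.09, -0.25 and 0.50. These settings differ by 1 factor per array, so the distance of a bright miRNA from the median is nearly the same in all of them by construction. As scaled here it was 0.66 for miR-21 and -0.49 for miR-22 for TEBs against stroma, and 0.23 and -0.88 for ducts against stroma. Quantile normalization and the authors' value table do not shift all miRNAs alike, and there the distances moved. For ducts against stroma that of miR-22 was -0.53 and -0.52, and that of miR-21 0.40 and 0.34. For TEBs against stroma miR-22 lay at -0.59 and -0.73 and miR-21 at 0.42 in both. For TEBs against ducts the distance of miR-22 went from 0.31 to -0.02 and -0.16, and that of miR-21 from 0.35 to 0.06 and 0.14.

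**Figure D5:**
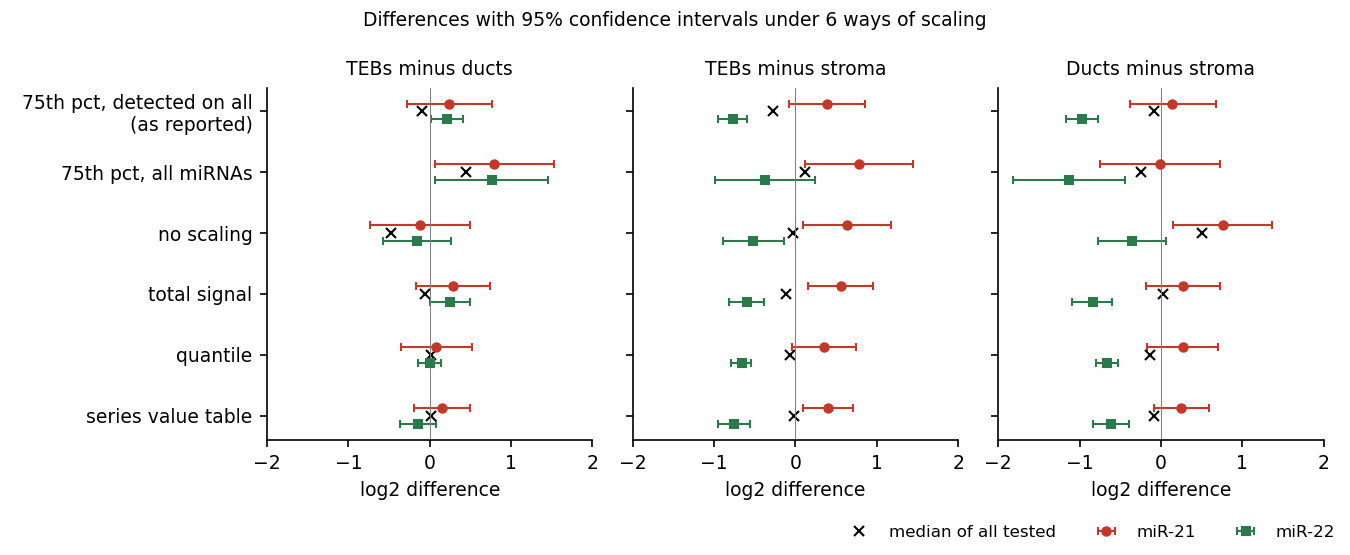
log2 differences of miR-21 and miR-22 with 95% confidence intervals (horizontal axis) under 6 ways of making the arrays comparable, for the 3 comparisons, with a cross at the median of all tested miRNAs. The miR-22 values against stroma lie below 0 under all 6, from -0.77 to -0.37 for TEBs and from -1.13 to -0.36 for ducts, and miR-21 lies above the median of all tested miRNAs in each.

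The adipocyte markers, the detected endothelial marker and the 2 detected leukocyte markers moved in the same direction as miR-22. The fibroblast and smooth muscle, red cell and skeletal muscle lists did not do so throughout. All 4 adipocyte-linked miRNAs (miR-378, miR-378*, miR-193 and miR-365) were lower than in stroma in TEBs and in ducts, with a median log2 difference of -1.37 and -1.58 against -0.28 and -0.09 over all tested miRNAs. Of all tested miRNAs 44.3% were lower in TEBs and 12% in ducts. Under the other scalings 2 to 4 of the adipocyte-linked miRNAs passed in either comparison, and miR-193 had the opposite sign in ducts with no scaling (0.02). Their summed scaled signal was 784.4 to 922.1 units in stroma, 338.9 to 413.7 in ducts and 357.3 to 409.8 in TEBs, and 3 of the 4 were detected on every duct array and all 4 on every TEB array. Of the endothelial markers, miR-126-3p was also lower in both epithelial fractions (log2 difference -1.20 in TEBs, adjusted p = 9.6e-04, and -0.75 in ducts, adjusted p = 0.022, from limma), and miR-126-5p was detected nowhere. The miR-126-3p call was lost in both with the percentile of all miRNAs, and in ducts with no scaling, with its sign kept. The endothelial sum was 2764.7 to 3863.4 units in stroma, 1926.9 to 2060.5 in ducts and 1315.0 to 1649.8 in TEBs.

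Fewer calls were found for the leukocyte markers, and the remaining lists did not follow this direction throughout. Of the 5 fibroblast and smooth muscle markers, 4 were detected on every array and miR-145 on none, and 3 were higher and 1 lower in TEBs than in stroma, the lower one (miR-143) passing only as scaled here. Their sum was 2467.4 to 2963.8 units in stroma, 3426.6 to 3512.4 in ducts and 3160.4 to 3778.9 in TEBs. Of the 5 leukocyte markers miR-142-3p and miR-223 were detected on every array, while miR-142-5p, miR-150 and miR-155 were detected on none. Both detected ones were below stroma in TEBs and in ducts under all 5 scalings of the scanner signal. In TEBs miR-223 passed (-0.64, adjusted p = 0.02 from limma), a call lost with the percentile of all miRNAs and with no scaling. There miR-142-3p was at -0.44 (adjusted p = 0.29 from limma). In ducts miR-142-3p was at -0.84 and miR-223 at -0.69, and neither passed as scaled here (adjusted p = 0.17 and 0.056 from limma). The leukocyte sum was 562.7 to 679.1 units in stroma, 361.1 to 383.7 in ducts and 296.1 to 449.5 in TEBs. All 3 red cell markers were lower in TEBs than in stroma, the direction of miR-22, with a median log2 difference of -0.96, and none passed in ducts. All 3 calls in TEBs were lost with the percentile of all miRNAs, with no scaling and with quantile normalization, with the sign kept. Their sum was 2017.6 to 3622.0 units in stroma, 2617.5 to 3320.2 in ducts and 1384.5 to 1923.2 in TEBs. The 4 skeletal muscle markers summed to at most 178.6 units on any array, with miR-206 detected nowhere. The part of any of these cell types in the miR-22 or miR-21 differences was not tested.

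Lists of miRNAs with known roles place the members in context, and their calls are to be read beside those of all 167 tested miRNAs. Of these, 20.4% were higher and 44.3% lower in TEBs than in stroma. Between ducts and stroma the shares were 9.58% and 12%, and between TEBs and ducts 11.4% and 13.2%. Of 15 miRNAs linked to the growth or spread of breast tumours, the members included, 12 were tested. Between TEBs and stroma 7 of them were higher in TEBs and 4 lower, miR-22 among the latter, with a median of 0.77. With the percentile of all miRNAs 7 were higher and none lower, at a median of 1.17. The largest fall among the others was that of miR-107 (-1.01, adjusted p = 8.4e-05 from limma), a miRNA known to lower Dicer, and the leading rise was that of miR-18a of the miR-17-92 cluster, which was detected on no stroma array. Between ducts and stroma 3 were higher and 3 lower (7 and 0 with no scaling), and between TEBs and ducts 5 were higher in TEBs and 1 lower, namely miR-10b (-0.79, adjusted p = 0.02 from limma), a miRNA linked to invasion, whose call was lost with the percentile of all miRNAs (-0.24) and with quantile normalization (-0.56).

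The 6 miRNAs that hold cells in an epithelial state (the miR-200 family and miR-205, which repress the ZEB factors) were detected on every epithelial array and on no stroma array, and all 6 were higher in both epithelial fractions. Between TEBs and ducts 1 of the 6, miR-200a, was lower in TEBs (-1.57, adjusted p = 3.7e-04 from limma), and it passed under all 5 scalings of the scanner signal. Of 11 miRNAs linked to restraint of stemness (the let-7 family, miR-34a, miR-93 and miR-200c), 2 were higher and 4 lower in TEBs than in stroma, with a median of -0.06. Over all tested miRNAs 20.4% were higher and 44.3% lower, with a median of -0.28. The balance of the 11 turned with the scaling, to 3 higher, none lower and a median of 0.33 with the percentile of all miRNAs. The lowest was let-7g (-0.57, adjusted p = 0.0034 from limma), and let-7 probes may share signal among near-identical members. Between ducts and stroma 1 was higher and 2 were lower (6 and 0 with no scaling), beside 9.58% and 12% of all tested miRNAs. Between TEBs and ducts miR-93 alone of the 11 passed (0.69 higher in TEBs, adjusted p = 0.015 from limma), where 24.6% of all tested miRNAs did. It did not pass with no scaling (0.33).

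The miRNAs whose log2 signals over the 8 arrays most resembled miR-22 were miR-107 (Pearson r = 0.99), miR-196a (0.98), miR-30e (0.98), miR-193b (0.97) and miR-378* (0.96). All 5 were lower than in stroma in both TEBs and ducts, from -0.85 for miR-30e to -1.98 for miR-196a in TEBs, and from -0.86 to -2.11 in ducts, where miR-378*, also an adipocyte marker above, was lowest. All 5 kept this sign under the other scalings, but miR-107, miR-30e and miR-193b did not pass in TEBs with the percentile of all miRNAs, and in ducts miR-30e did not pass with that percentile or with no scaling, nor miR-107 with no scaling. For TEBs against ducts none of the 5 passed the test (adjusted p 0.21 to 0.94 from limma). The correlations follow the tissues and share the array and its scaling, and with the percentile of all 611 miRNAs miR-196a fell to place 24.

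The nearest miRNAs to miR-21 were less close as scaled here. They were miR-34a (r = 0.91), miR-221 (0.88), miR-99a (0.86), miR-106b (0.81) and miR-20b (0.79). With the percentile of all miRNAs their r was 0.97, 0.98, 0.96, 0.95 and 0.91. The 5 named for miR-22 then had 0.86 to 0.98, so the contrast was not kept. Of the miR-21 neighbours, miR-221 was detected on no stroma array and on 1 duct array, so its r rests in part on undetected signals. It was higher in TEBs than in stroma (0.89, adjusted p = 0.02 from limma). miR-20b was higher in TEBs than in stroma (1.55, adjusted p = 3.2e-04 from limma) and than in ducts (1.08, adjusted p = 0.013 from limma). As scaled here, miR-34a, miR-99a and miR-106b passed in no comparison. Between the members themselves r was -0.49 over the same 8 arrays.

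The other strand of each hairpin has its own probes, under the names miR-21* and miR-22*. RefSeq holds them as miR-21a-3p and miR-22-5p, printed here with their seeds in capitals because each comes from the same hairpin as a member.
miR-21a-3p: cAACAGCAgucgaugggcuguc
miR-22-5p: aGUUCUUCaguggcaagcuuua
Neither was detected on any of the 8 arrays. The signal of miR-21* was negative on all arrays, from -15.5 to -5.2 units. That of miR-22* ran from -16.2 to -0.5 units on the stroma and duct arrays and was 1.8, 2.5 and 0.6 units on the TEB arrays, each smaller than its scanner error of 3.6, 4.5 and 5.0 units. No comparison between tissues was made for them.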

How the data were processed

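The authors deposited, for each of 8 single-colour Agilent mouse miRNA arrays (SurePrint V2, 100 ng of Cy3-labelled total RNA), gene-level intensity files of Agilent Feature Extraction 9.5.3 (version from the submitters' processing notes). Each intensity is a background-subtracted total over a miRNA's probes, with no normalization between arrays. No saturation flag was used here. A value table the authors also deposited holds log2 values, of which 312 of 672 sorted values, the lowest of them 2.04, were identical on the 8 arrays. Its normalization, scale and centring are not stated in the sources used here. Its column medians ran from 0.14 to 1.48. It was used as an alternative.

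Control and 39 viral probes were left out. Each array was scaled to the 75th percentile of the 108 mouse miRNAs detected on all arrays, because only 33.2% of the 611 mouse miRNAs were detected on any array. A floor of 1 was applied to the scaled signal, and its log2 was fitted with limma 3.58.1 in R 4.3.3 over all 8 arrays. A miRNA was tested if some tissue had it detected on each of its arrays (167 miRNAs), with Benjamini-Hochberg adjustment per comparison and a threshold of 0.05. Shares (negative signals counted as 0) and within-array ratios were compared by exact two-sided permutation tests. The procedure was tested on simulated data. Named beside the members were their other strands, miRNAs with the same seed, miR-21b and the 5 most correlated miRNAs. The extremes of lists of markers and of miRNAs with known roles were also named. The members and lists were chosen with earlier results of these data known. Alternatives were other scalings, background, floor, filters, tests, the value table, a replicate block and leaving out each array. The number of arrays limits the precision, and intensities give no counts. The labels do not say whether replicate numbers pair the arrays. Deviations from tissue means had a mean r of -0.10 over 7 pairs with the same number (-0.51 to 0.36). Over 14 pairs with different numbers it was 0.05 (-0.50 to 0.51). This cannot decide whether arrays were paired, because the pairs are few and the deviations within a tissue are tied to each other.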

Additional observations from a re-analysis of the deposited data

How the results depend on the processing

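The share differences, and the ratio differences against stroma, kept their direction under all alternatives run. For shares these changed the summed signal, took its log2 or left out an array, and none rescaled the arrays. A share is tied to the total of its own array, so it cannot show the dependence on scaling seen in the log2 differences. The smallest p was 0.1 or more in all comparisons but those of epithelium with stroma, so the threshold says nothing of stability in the others. The epithelial values for the miR-22 share and the ratio stayed under it before adjustment (exact permutation p 0.018 to 0.048). Among the log2 differences, 117 of 132 recomputed values kept both, 8 changed sign, 5 newly passed and 2 no longer passed.

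Scaling to the 75th percentile of all miRNAs gave -0.37 for miR-22 and 66 calls (108 as reported; 38 higher and 28 lower, against 34 and 74) between TEBs and stroma, and -0.01 for miR-21 and 19 calls (36 as reported) between ducts and stroma. No scaling gave, between TEBs and ducts, -0.12 for miR-21, -0.16 for miR-22 and 75 calls (41 as reported; 12 higher and 63 lower, against 19 and 22), and between ducts and stroma -0.36 for miR-22 and 56 calls (52 higher and 4 lower, against 16 and 20). Between TEBs and stroma miR-21 newly passed at 0.56 with total-signal scaling, 0.42 with normexp and an offset of 50, and 0.40 in the authors' value table. Normexp gave 66 calls between ducts and stroma (14 higher and 52 lower). Between TEBs and ducts, no detection filter left 18 calls, the methods' t-test after adjustment 12 (53 before it), and the value table gave -0.14 for miR-22, which newly passed with trend and robust estimation (0.21, adjusted p = 0.019 from limma). The cause of these changes was not tested.

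With the replicate number as a block, 16 miRNAs passed between TEBs and ducts, and miR-22 was at -0.77 against stroma in TEBs and -0.99 in ducts, with no call of a member changed; the numbers pair nothing that the labels name.

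Leaving out each array, calls ran from 5 to 70 between TEBs and ducts (70 without TEB replicate 1, 5 without TEB replicate 2, 10 without duct replicate 1), 82 to 114 between TEBs and stroma and 26 to 40 between ducts and stroma. miR-21 ran from -0.13 to 0.41 between TEBs and ducts, 0.27 to 0.62 between TEBs and stroma and -0.02 to 0.52 between ducts and stroma. miR-22 ran from -0.04 to 0.22, -0.78 to -0.73 and -0.99 to -0.73 in the same order. The miR-21 share difference ran from 0.88 to 2.84 percentage points between TEBs and ducts, 2.65 to 4.24 for TEBs against stroma and 0.50 to 2.30 for ducts against stroma, and that of miR-22 from 0.65 to 1.10, -3.25 to -2.80 and -4.01 to -3.80. The ratio ran from -0.11 to 0.27 between TEBs and ducts. A tissue left with 1 array is assumed to vary like the others.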

Other observations

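In the authors' value table, miR-22 had the same log2 value, 12.71, on all 3 stroma arrays, and miR-21 had that value on duct replicate 2 and TEB replicate 2. The remaining miR-21 values were 12.30, 12.37 and 12.10 in stroma, 12.30 on duct replicate 1 and 12.63 on both other TEB arrays, and those of miR-22 were 12.10 on both duct arrays and on TEB replicate 1 and 11.89 on the other two TEB arrays. TEB replicate 1, whose scanner signal of miR-21 was the lowest of the epithelial arrays (5024.4 units), thus had the same table value as TEB replicate 3 (7297.8 units).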
